A study of Homo sapiens and Mus musculus with 29 samples.

Results

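The comparison described here is between human pancreatic tumors that carried an HNF4G knockout together with FOXA1 overexpression (HNF4G-KO + FOXA1-OE) and control tumors, both grown in the mouse pancreas. Its members are the 5 primary tumors whose labels give HNF4G knockout + FOXA1 and the 3 primary tumors labelled Cas-9-EV. These are 8 of the 29 samples of the series and came from 7 mice. HNF4G-KO + FOXA1-OE tumors 2 and 3 were taken from the same animal and were averaged on the log2 scale, so the comparison was of 4 mice against 3. Metastases from the same animals were left out.

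All tumors were HPAF-II cells, an established human pancreatic ductal adenocarcinoma line, implanted in the pancreas of NSG mice, which lack T, B and natural killer cells. The HNF4G-KO cells were made with CRISPR guides against HNF4G and were a pool of clones. The paper describes the clones as knockouts and the pool as HNF4G−/−, and it also writes of heterozygotic frameshift mutations in them. FOXA1 was overexpressed from a lentivirus in those cells. Control cells carried Cas-9 and the EV label without the knockout or FOXA1. Tumors were collected at a humane endpoint, and the labels give no age for the mice. The groups with a single change, HNF4G-KO (4 tumors) and FOXA1-OE (3 tumors), entered the same model and are cited only as values beside those of the combined group.

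HNF4G and HNF4A are related nuclear receptors that bind DNA at direct repeats and are known for genes of the gut, liver and pancreas. FOXA1 is a pioneer factor of the forkhead family, able to bind closed chromatin in endoderm-derived epithelia and to open it for other factors. The question of the comparison was how the transcriptome of a primary tumor differs when HNF4G is disrupted and FOXA1 is raised in the same cells.

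Libraries of the 8 tumors held between 35.1 and 63.6 M reads (M, 1e6) in genes, as derived from the spacing of the deposited values, and 13241 to 15476 genes reached 1 RPKM (reads per kilobase of gene, scaled to library depth). Ductal markers were high throughout: KRT19 ranged from 926 to 1436 RPKM in control tumors and from 1052 to 2101 RPKM in HNF4G-KO + FOXA1-OE tumors, and EPCAM from 452 to 504 and from 195 to 473 RPKM. PTPRC, the general leukocyte marker, did not exceed 0.188 RPKM in any of the 8 tumors. Myeloid genes varied. ITGAM and MPO did not exceed 0.308 and 0.0805 RPKM, and CD68 reached 1.006 RPKM. CSF1R reached 3.05 and CD14 17.3 RPKM, each in a control tumor. LYZ was high in all 8 tumors, from 142 RPKM in HNF4G-KO + FOXA1-OE tumor 5 to 714 RPKM in control tumor 1. The cells behind these reads were not identified. Tumors hold mouse cells whose reads can align to human genes. The summed level of 19 stromal genes was 217, 208 and 69.2 RPKM in control tumors 1 to 3 and 59.3, 66.3, 119, 132 and 62.1 RPKM in HNF4G-KO + FOXA1-OE tumors 1 to 5, with PECAM1 at or near 0 in all of them. The summed level of 19 acinar and endocrine genes was 999.7 RPKM in control tumor 2 and 107 RPKM in HNF4G-KO + FOXA1-OE tumor 4, and between 0.941 and 24.96 RPKM in the others. Fewer cells of a type and less RNA per cell cannot be told apart in such bulk samples.

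HNF4G-KO + FOXA1-OE tumor 4 stood apart from its group among genes that fell. The 364 genes called lower had a median log2 level, minus the control mean, of -0.65 in tumor 4 and -0.86 to -1.09 in the others. The 306 genes called higher did not set it apart. Their median was 0.87 in tumor 4, between 0.78 in tumor 3 and 1.32 in tumor 1. Among genes at 5 RPKM or more in each control tumor, 3 were below 10% of the lowest control tumor in each of the 4 HNF4G-KO tumors: CSAG1, SOD3 and MAGEA12. These 3 genes were at 30.3%, 49.1% and 36.8% of the control mean in HNF4G-KO + FOXA1-OE tumor 4, against 14.7% or less in the other 4 tumors of the group. Tumor 4 lay nearest to the control tumors for 14 of the 15 largest falls (AQP5-AS1 excepted), as the heat map of these genes shows, and whether it held cells without the knockout was not tested. Of 69 named genes that were called, CAPN8, IGFBP6, PRAP1 and PSCA lost their call without it (adjusted p = 0.0564, 0.0621, 0.05035 and 0.0621).

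FOXA1 itself was clearly raised. Control tumors had 0.932, 0.679 and 0.519 RPKM, and HNF4G-KO + FOXA1-OE tumors 1 to 5 had 11.99, 5.76, 23.1, 6.503 and 4.65 RPKM, so the groups did not overlap. The log2 fold change was 2.43 ± 0.45 (SE; limma, adjusted p = 0.00948; 2.52 without tumor 4). The FOXA1 gene lies at chr14:37589552-37596059 (GRCh38), and reads from the lentiviral copy and the native gene cannot be told apart in a gene-level value. In HNF4G-KO tumors FOXA1 was at 1.26 to 1.87 RPKM, and in FOXA1-OE tumors at 6.32, 8.18 and 0.763 RPKM, the third of these within the range of the control tumors.

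The HNF4G transcript was not lower. Control tumors had 3.47, 2.48 and 2.57 RPKM, and HNF4G-KO + FOXA1-OE tumors had 7.09, 6.16, 6.67, 3.94 and 1.69 RPKM. Tumors 1 to 4 were above every control tumor and tumor 5 below every one, and the difference did not pass the test (log2 fold change 0.48 ± 0.37, adjusted p = 0.522). A frameshift need not lower the transcript, so this value does not check the knockout label. HNF4A, the paralog, rose from 11.3, 9.96 and 8.49 RPKM to 19.98, 19.9, 15.8, 16.4 and 18.5 RPKM, with no overlap (log2 fold change 0.82 ± 0.19, adjusted p = 0.0290). The HNF4A call was kept in 2 of the 7 fits that each left out 1 mouse.

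**Figure D1:**
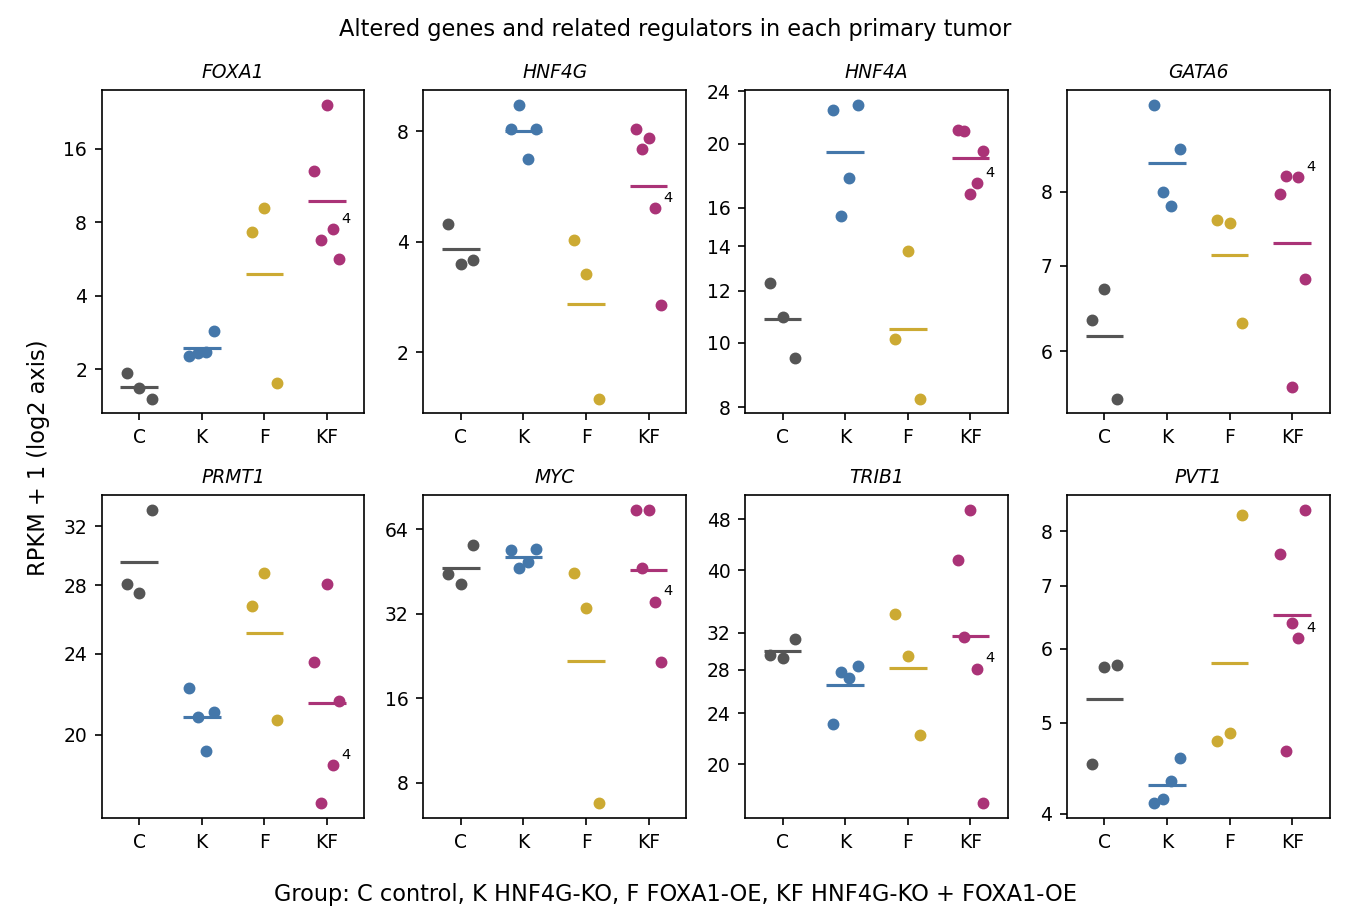
RPKM + 1 on a log2 axis for FOXA1, HNF4G, HNF4A, GATA6, PRMT1, MYC, TRIB1 and PVT1, with 1 point per primary tumor in the control (C, 3), HNF4G-KO (K, 4), FOXA1-OE (F, 3) and HNF4G-KO + FOXA1-OE (KF, 5) groups. Lines are means on the log2 scale, and tumor 4 of the last group is numbered. FOXA1 lies between 4.65 and 23.1 RPKM in all 5 KF tumors and below 1 RPKM in all 3 control tumors, while HNF4G is higher than in control in 4 KF tumors and lower in 1.

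Of the 9 regulators that the study discusses and that were listed here, 8 passed the level filter and FOXA1 and HNF4A were the 2 called. GATA6, a factor of the classical tumor subtype, was at 5.35, 5.71 and 4.51 RPKM in control tumors and 4.62 to 7.23 RPKM in the HNF4G-KO + FOXA1-OE tumors (adjusted p = 0.310). PRMT1, an arginine methyltransferase, was at 27.1, 26.5 and 32.2 RPKM against 22.6, 16.15, 27.12, 17.7 and 20.6 RPKM. It was below the control tumors in each mouse once tumors 2 and 3 were averaged, but tumor 3 alone was not below them all. PRMT1 was not called (log2 fold change -0.46 ± 0.15, adjusted p = 0.102). MYC had a log2 fold change of -0.12 ± 0.53, TRIB1 of -0.00 ± 0.26 and PVT1 of 0.36 ± 0.21, with overlapping groups. GATA5 was at 0 in 7 of the 8 tumors. Among 21 tested genes of a wider list of foregut and hepatic factors, 3 were called (14.3%, against 4.70% of all genes tested). The third rise was CREB3L1, a membrane-bound factor of secretory cells (log2 fold change 1.63 ± 0.35, adjusted p = 0.0182). CREB3L1 kept its call in 4 of the 7 fits that left out 1 mouse.

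Over all 14269 genes tested, 670 differed at an adjusted p below 0.05 (4.70%), of which 306 were higher (2.14%) and 364 lower (2.55%) in HNF4G-KO + FOXA1-OE tumors. The groups did not overlap by mouse in 2698 genes (18.9%), including 660 of those called. A difference of at least 1 on the log2 scale was reached by 176 of the higher and 138 of the lower genes. The median log2 fold change over all genes tested was -0.06, with 6164 genes above 0 and 8104 below. Of the 670 genes, 119 were called in every one of the 7 fits that left out 1 mouse, and without control tumor 3 the count was 137 genes. The spread behind these tests came from all 14 mice of the 4 groups, and a fit of the 2 groups alone called 114 genes, all of them among the 670.

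**Figure D2:**
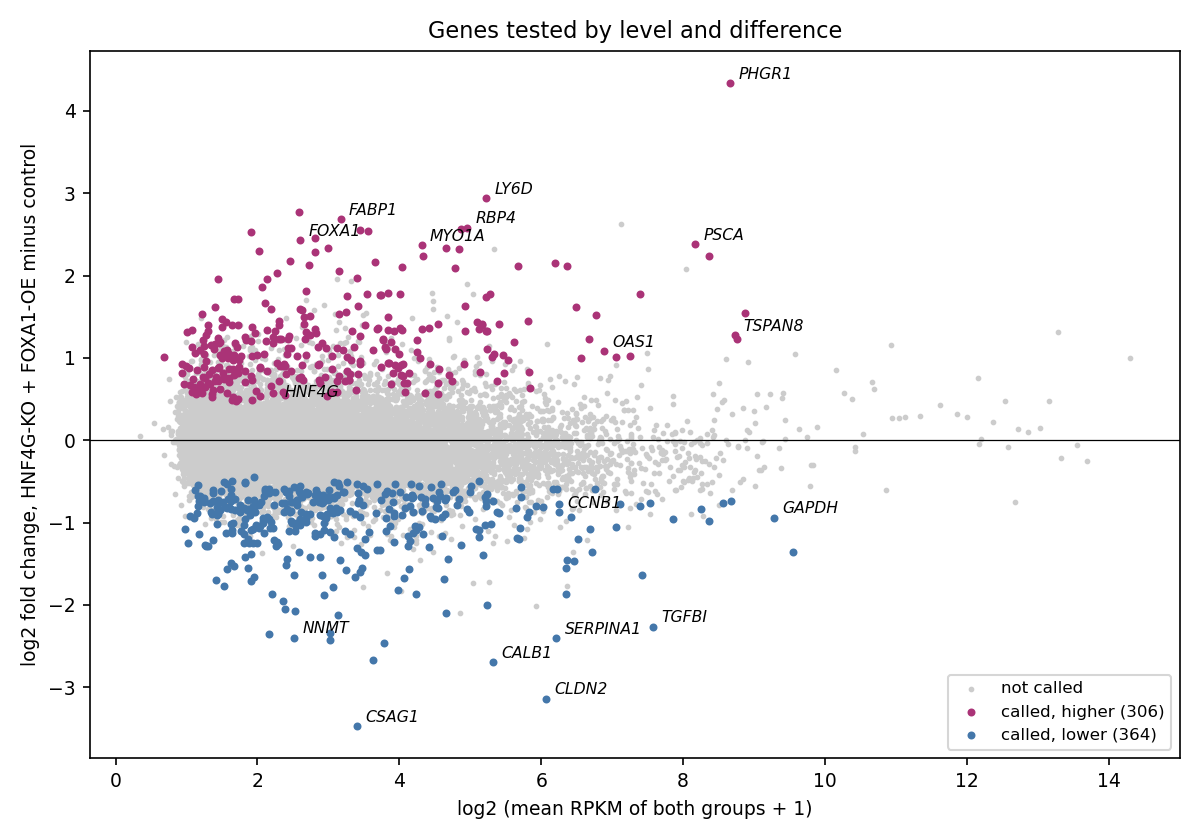
Each point is a gene; the x axis is the log2 of the mean RPKM of both groups + 1 and the y axis the log2 fold change of HNF4G-KO + FOXA1-OE against control tumors. The 306 genes called higher and the 364 called lower are colored, and they extend from PHGR1 at 4.34 to CSAG1 at -3.47.

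The largest rise was in a gene of gut epithelium. PHGR1, a small protein of the intestinal lining, was at 80.3, 45.3 and 4.53 RPKM in control tumors and at 681, 305, 135, 392 and 1762 RPKM in HNF4G-KO + FOXA1-OE tumors 1 to 5. Each of the 5 tumors exceeded each control tumor, with control tumor 3 far below the other controls (log2 fold change 4.34 ± 0.83, adjusted p = 0.0113). FABP1, the fatty acid-binding protein of enterocytes and hepatocytes, was at 2.19, 0.484 and 0.0328 RPKM against 39.3, 8.25, 2.44, 3.83 and 11.96 RPKM. FABP1 therefore ranged widely within both groups, and its lowest treated tumor was close to the highest control tumor (log2 fold change 2.69 ± 0.62, adjusted p = 0.0256). Its call was kept in 4 of the 7 fits that left out 1 mouse. MYO1A, the myosin that links the actin core of a microvillus to its membrane, was far tighter, at 8.46, 4.31 and 4.10 RPKM against 31.8, 28.1, 23.2, 34.3 and 36.7 RPKM (log2 fold change 2.37 ± 0.25, adjusted p = 0.000545).

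Promoter sequences of these genes were read because they rose together. The RefSeq promoter table holds 250 bases before and 50 bases after a start site and had an entry for 196 of the 306 genes called higher. It was searched on both strands for the forkhead-type core TGTTTAC, for its variants TATTTAC plus TGTTTGC, and for the HNF4-type repeat CAAAGTCCA. A forkhead-type core was found in 35 of 285 promoters of higher genes (12.3%), in 32 of 437 promoters of lower genes (7.32%), in 6.99% of promoters of tested genes and in 9.57% of all 35116 promoters. The HNF4-type repeat was found in 4 of 285 promoters of higher genes (1.40%), in 0 of 437 of lower genes and in 0.384% of all promoters. Promoters, not genes, were counted. Some promoters of 1 gene overlap, so 1 site can count more than once, as for TSPAN8 (higher) and DUT (lower). FOXA1, overexpressed from the lentivirus, is among the higher genes with a core. A match is a description of letters only.

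The 250 bases before the start site are shown 5′ to 3′ on the strand of the gene, for 6 genes described here, chosen among those that held a match, with the match in capitals. FABP1 is at chr2:88128063-88128312 (minus strand, GRCh38), TSPAN8 at chr12:71158000-71158249 (minus), CYP4F3 at chr19:15641062-15641311 (plus), MYO1A at chr12:57050130-57050379 (minus), APOBEC1 at chr12:7665909-7666158 (minus) and SERPINA1, a gene that fell, at chr14:94388603-94388852 (minus). MYO1A has 2 promoters in the table and the other one holds TATTTAC. Its repeat is read on the opposite strand.
FABP1: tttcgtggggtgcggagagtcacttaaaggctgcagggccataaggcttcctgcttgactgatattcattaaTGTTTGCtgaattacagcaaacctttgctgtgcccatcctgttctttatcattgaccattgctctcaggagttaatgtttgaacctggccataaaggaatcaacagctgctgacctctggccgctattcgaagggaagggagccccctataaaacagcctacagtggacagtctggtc
TSPAN8: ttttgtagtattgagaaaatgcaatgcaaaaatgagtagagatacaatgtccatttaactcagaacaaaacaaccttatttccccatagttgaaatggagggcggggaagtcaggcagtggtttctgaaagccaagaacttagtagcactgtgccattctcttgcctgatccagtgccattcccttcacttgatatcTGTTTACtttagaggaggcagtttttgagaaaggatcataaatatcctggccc
CYP4F3: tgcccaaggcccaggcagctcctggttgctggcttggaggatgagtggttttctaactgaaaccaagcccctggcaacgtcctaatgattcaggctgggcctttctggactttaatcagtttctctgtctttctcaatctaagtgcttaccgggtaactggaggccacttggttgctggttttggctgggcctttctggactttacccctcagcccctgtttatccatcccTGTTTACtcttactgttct
MYO1A: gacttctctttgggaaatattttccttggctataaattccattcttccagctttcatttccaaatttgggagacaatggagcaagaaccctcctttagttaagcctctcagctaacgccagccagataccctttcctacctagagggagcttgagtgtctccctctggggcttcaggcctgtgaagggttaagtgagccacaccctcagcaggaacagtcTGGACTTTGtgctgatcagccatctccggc
APOBEC1: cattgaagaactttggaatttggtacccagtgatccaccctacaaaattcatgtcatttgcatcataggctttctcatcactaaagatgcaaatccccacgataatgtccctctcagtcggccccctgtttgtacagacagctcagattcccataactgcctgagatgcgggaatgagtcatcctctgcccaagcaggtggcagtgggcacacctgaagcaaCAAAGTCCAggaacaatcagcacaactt
SERPINA1: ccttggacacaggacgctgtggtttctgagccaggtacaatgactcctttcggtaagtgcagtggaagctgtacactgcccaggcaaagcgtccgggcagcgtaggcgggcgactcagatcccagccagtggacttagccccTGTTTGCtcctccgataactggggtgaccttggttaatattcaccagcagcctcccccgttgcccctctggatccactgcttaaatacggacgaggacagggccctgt

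The match ends close to the start site in MYO1A, APOBEC1 and CYP4F3, where it begins 30, 28 and 19 bases before it. It begins 178, 53 and 108 bases before it in FABP1, TSPAN8 and SERPINA1. These genes were chosen because they held a match, so the positions do not show how matches divide between genes that rose and genes that fell.

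Of 34 listed genes of the absorptive intestine, 19 were tested, 7 rose and 1 fell, with a median log2 fold change of 0.44. These calls were 42.1% of the tested members, against 4.70% of all genes tested. The list held 4 rises and no fall without control tumor 3 and 3 rises and no fall with the 2 groups alone, and its median was 0.82 without HNF4G-KO + FOXA1-OE tumor 5 and 0.72 with window medians removed. Beside PHGR1, FABP1 and MYO1A, the rises were CDH17, GUCA2B, CDHR5 and LGALS4. CDH17, the intestinal cadherin, was at 49.8, 26.8 and 16.6 RPKM in control tumors and at 200, 153, 129, 98.3 and 89.6 RPKM in HNF4G-KO + FOXA1-OE tumors. CDH17 showed no overlap and was called in all 7 fits that left out 1 mouse (log2 fold change 2.12 ± 0.33, adjusted p = 0.00404). CDHR5, a cadherin of the brush border, had a log2 fold change of 1.77 ± 0.27, and GUCA2B, the precursor of uroguanylin, of 1.86 ± 0.29. CALB1, a calcium-binding protein also on this list, moved the other way.

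Genes of gastric and classical tumor epithelium lay in the same direction. Of 30 gastric and foregut secretory genes, 23 were tested, 5 rose (CAPN8, CAPN9, PSCA, TSPAN8 and SPINK1) and none fell in the limma fit, with a median of 0.86. The share called was 21.7%, against 4.70% of all genes tested. CAPN9, a calpain of the stomach, was at 3.32, 3.09 and 1.09 RPKM against 15.01, 10.8, 6.90, 13.1 and 15.7 RPKM and was called in all 7 fits (log2 fold change 2.05 ± 0.28, adjusted p = 0.00293). PSCA, a surface protein of gastric and pancreatic cancer cells, rose from 63.0, 62.9 and 120 RPKM to 406, 243, 132, 405 and 969 RPKM. PSCA was called in only 1 of the 7 fits, and tumor 3 lay just above the highest control tumor (log2 fold change 2.38 ± 0.60, adjusted p = 0.0366; 0.0621 without tumor 4). The list held 1 rise when the stromal level entered the model as a covariate, in each fit without 1 of the control tumors and in the fit without HNF4G-KO + FOXA1-OE tumor 1.

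Of 28 genes used to define the classical subtype of pancreatic ductal adenocarcinoma, 26 were tested and 7 were called, all higher. The share called was 26.9%, against 4.70% of all genes tested. A log2 fold change above 0 was found in 24 of the 26, against 6164 of all 14269 genes tested. The median of the list was 0.75, and it was 1.22 without the mouse of tumors 2 and 3. Of the 7, CDH17, LGALS4 and MYO1A are also rises of the intestinal list and TSPAN8 of the gastric list, so the lists are not separate. The 7 calls became 4 without control tumor 2, 3 without control tumor 3 and 2 with the 2 groups alone. CEACAM5, the carcinoembryonic antigen, was at 199, 107 and 47.0 RPKM in control tumors and at 771, 1126, 340, 362 and 293 RPKM in HNF4G-KO + FOXA1-OE tumors (log2 fold change 2.23 ± 0.49, adjusted p = 0.0209). CEACAM6, its close relative, was at 318, 202 and 174 RPKM against 1034, 1084, 488, 500 and 482 RPKM (log2 fold change 1.54 ± 0.30, adjusted p = 0.0124). Both were above every control tumor in every treated tumor, and reads of such related genes can be split between them by the counting. TSPAN8, a tetraspanin, was at 260, 204 and 235 RPKM against 1023, 698, 338, 365 and 547 RPKM (log2 fold change 1.27 ± 0.32, adjusted p = 0.0361). TSPAN8 was called in 2 of the 7 fits that left out 1 mouse. VSIG2, an immunoglobulin-like surface protein, had a log2 fold change of 2.55 ± 0.34 and was called in all 7 fits.

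Enzymes and transporters for drugs, bile acids and steroids formed the list with the largest number of calls. Of 44 listed genes, 23 were tested and 10 were called (43.5%, against 4.70% of all genes tested), with a median of 0.76. Every one of the 23 had a log2 fold change above 0, against 6164 of all 14269 genes tested. CYP2C18, a cytochrome P450, was at 4.87, 2.80 and 2.30 RPKM against 21.99, 19.8, 11.9, 14.4 and 11.5 RPKM (log2 fold change 1.97 ± 0.28, adjusted p = 0.00293). ALDH3A1, an aldehyde dehydrogenase, was at 10.7, 5.72 and 4.78 RPKM against 33.7, 39.4, 16.7, 32.5 and 72.4 RPKM (log2 fold change 2.34 ± 0.39, adjusted p = 0.00537). Control and treated tumors were separate for both genes, and both were called in all 7 fits.

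ABCC2, the canalicular export pump for conjugates, rose from 0.866, 0.294 and 0.243 RPKM to 6.58, 2.01, 6.51, 3.67 and 1.96 RPKM (log2 fold change 1.71 ± 0.28, adjusted p = 0.00484). NR1I2, the pregnane X receptor that senses xenobiotics, rose with them (log2 fold change 1.59 ± 0.32, adjusted p = 0.0139), as did CYP27A1, CYP4F3, CYP4F12, SULT1C2, AKR1B10 and AKR1C2. CYP4F3 and CYP4F12, like AKR1C2 and its relatives, have near copies, so their separate values are uncertain. The count was 3 to 6 in the fits without 1 control tumor and 9 without tumor 4.

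Retinoid and vitamin D genes moved in both directions. Of 30 listed genes, 21 were tested, 3 rose and 3 fell (28.6% called, against 4.70% of all genes tested). RBP4, the carrier of retinol in plasma, was at 6.92, 8.06 and 7.15 RPKM in control tumors and at 84.0, 40.7, 63.3, 30.3 and 44.8 RPKM in HNF4G-KO + FOXA1-OE tumors. RBP4 was among the most uniform differences, and its lowest treated tumor was far above its highest control tumor (log2 fold change 2.58 ± 0.29, adjusted p = 0.000884). RDH10, which makes retinal from retinol, rose by 1.40 ± 0.27 on the log2 scale, and ALDH1A3, which makes retinoic acid from retinal, fell by 1.42 ± 0.27. CYP27B1, the enzyme that activates vitamin D, rose (0.82 ± 0.13), while CALB1, a target of vitamin D, and CD14 fell. The list held no fall without control tumor 3.

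Squamous and basal-like genes were called in both directions. Of 38 squamous and basal-like genes, 24 were tested, 5 rose (LY6D, SPRR1A, SPRR1B, SPRR3 and UCA1) and 2 fell (KRT6B and PTHLH), with a median of 0.46. Calls made up 29.2% of the tested members, against 4.70% of all genes tested. The list held 2 rises and no fall without control tumor 2 or control tumor 3 and with the 2 groups alone, and 3 rises and 1 fall without control tumor 1 or HNF4G-KO + FOXA1-OE tumor 1. SPRR3, a proline-rich envelope protein, was at 6.09, 7.07 and 6.80 RPKM against 59.1, 45.1, 11.4, 37.2 and 74.9 RPKM (log2 fold change 2.56 ± 0.42, adjusted p = 0.00522). SPRR1A had a log2 fold change of 2.23 ± 0.32, and both SPRR genes were called in all 7 fits. LY6D, a surface marker of stratified epithelium, was at 5.42, 5.12 and 6.40 RPKM against 97.4, 16.4, 16.2, 30.9 and 124 RPKM. Tumors 1 and 5 had the highest LY6D values, and each of the 5 exceeded each control tumor (log2 fold change 2.94 ± 0.57, adjusted p = 0.0124). LY6D was called in 5 of the 7 fits. KRT6B, a keratin of basal-like tumors, moved the other way, from 10.4, 11.6 and 12.8 RPKM to 4.71, 1.92, 4.34, 7.47 and 5.17 RPKM (log2 fold change -1.10 ± 0.24, adjusted p = 0.0183). PTHLH, which encodes the parathyroid hormone-like hormone, fell by 1.55 ± 0.36 on the log2 scale.

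Among 48 tested genes of the interferon response and antigen presentation, 4 were called (8.33%, against 4.70% of all genes tested). These were the oligoadenylate synthetases OAS1, OAS2, OAS3 and OASL, all higher. OASL was at 17.0, 14.4 and 15.9 RPKM in control tumors and at 67.2, 33.5, 33.9, 29.9 and 41.1 RPKM in HNF4G-KO + FOXA1-OE tumors, with no overlap and calls in all 7 fits (log2 fold change 1.32 ± 0.23, adjusted p = 0.00733). OAS1 was at 65.2, 57.4 and 98.2 RPKM against 247, 143, 151, 105 and 143 RPKM (log2 fold change 1.08 ± 0.26, adjusted p = 0.0328). The median of the list was 0.31, and 34 of its 48 members were above 0, against 6164 of all 14269 genes tested. OAS1, OAS2 and OAS3 were called in 2, 3 and 2 of the 7 fits that left out 1 mouse. The list held 1 call without any one of the control tumors or without HNF4G-KO + FOXA1-OE tumor 1 and 0 by limma with the 2 groups alone, and its median was 0.15 without control tumor 2 and 0.16 without HNF4G-KO + FOXA1-OE tumor 1.

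The largest fall was in a cancer-testis gene. CSAG1, on chromosome X (chrX:152727484-152733735, GRCh38), was at 15.5, 18.4 and 19.4 RPKM in control tumors and at 0.0355, 0.0864, 0, 5.39 and 0.185 RPKM in HNF4G-KO + FOXA1-OE tumors 1 to 5. Its neighbor MAGEA12 (chrX:152733757-152737669) was at 6.52, 6.11 and 6.27 RPKM against 0.01997, 0, 0, 2.32 and 0.245 RPKM. Both were close to absent in 4 tumors and intermediate in tumor 4. The log2 fold change was -3.47 ± 0.51 for CSAG1 (adjusted p = 0.00313) and -2.35 ± 0.33 for MAGEA12 (adjusted p = 0.00293), and without tumor 4 it was -4.11 and -2.75. Only these 2 of 19 listed CSAG and MAGEA family genes passed the level filter, and reads from near-identical copies of the family are uncertain.

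CLDN2, the pore-forming claudin of leaky epithelia, was at 129, 124 and 90.0 RPKM in control tumors and at 4.93, 8.999, 5.02, 52.2 and 10.4 RPKM in HNF4G-KO + FOXA1-OE tumors. All 5 were below the lowest control tumor, and tumor 4 was the highest of them (log2 fold change -3.14 ± 0.57, adjusted p = 0.00834; -3.82 without tumor 4). CLDN2 was the only call among 22 tested tight junction genes (4.55%, against 4.70% of all genes tested), whose median was 0.06. CALB1 followed the same pattern, from 52.5, 42.5 and 101 RPKM to 4.09, 8.66, 1.99, 31.7 and 8.24 RPKM (log2 fold change -2.70 ± 0.54, adjusted p = 0.0139; -3.29 without tumor 4).

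Among 33 tested secreted proteases and inhibitors, 3 were called (9.09%, against 4.70% of all genes tested), all lower: SERPINA1, SERPINA4 and SERPINA5. SERPINA1, alpha-1-antitrypsin itself, was at 117, 109 and 142 RPKM in control tumors and at 25.5, 16.9, 14.1, 37.5 and 16.1 RPKM in HNF4G-KO + FOXA1-OE tumors (log2 fold change -2.41 ± 0.27, adjusted p = 0.000884). SERPINA5, the protein C inhibitor, was at 27.2, 25.1 and 31.2 RPKM against 5.26, 5.08, 4.73, 14.51 and 5.82 RPKM (log2 fold change -1.86 ± 0.29, adjusted p = 0.00404). SERPINA4, kallistatin, had a log2 fold change of -1.09 ± 0.25 and was called in 1 of the 7 fits that left out 1 mouse, against 7 for SERPINA1 and SERPINA5. The median of the list was -0.22. SERPINA1 and RBP4, both secreted by liver, changed in opposite directions among 7 tested hepatic secretory genes. They were the 2 calls of that list (28.6%, against 4.70% of all genes tested).

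Mesenchymal genes were lower where they were called. Of 40 listed genes, 27 were tested, 22 were below 0, and 5 fell: TGFBI, AXL, VIM, CCN1 and NT5E, with a median of -0.41. The share called was 18.5%, against 4.70% of all genes tested. Over all 14269 genes tested, 8104 were below 0. TGFBI, a matrix protein induced by TGF-beta, was at 332, 297 and 291 RPKM in control tumors and at 42.8, 48.5, 76.2, 142 and 42.4 RPKM in HNF4G-KO + FOXA1-OE tumors (log2 fold change -2.26 ± 0.33, adjusted p = 0.00313; -2.65 without tumor 4). AXL, a receptor tyrosine kinase, was at 10.1, 12.2 and 13.7 RPKM against 2.53, 2.20, 4.52, 5.74 and 3.88 RPKM (log2 fold change -1.46 ± 0.23, adjusted p = 0.00404). VIM, the filament protein vimentin, was at 27.3, 31.4 and 37.7 RPKM against 11.97, 9.40, 23.6, 17.1 and 11.4 RPKM (log2 fold change -1.16 ± 0.21, adjusted p = 0.00815).

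For these 3 genes every treated tumor was below every control tumor. The stromal sum was also lower in HNF4G-KO + FOXA1-OE tumors 1, 2 and 5 (59.3, 66.3 and 62.1 RPKM) than in any control tumor, and its part in these falls was not tested. With the stromal level as a covariate 4 of the list were called lower and the median was -0.19. COL1A1, the most abundant stromal gene, was not called (81.3, 81.2 and 23.1 RPKM against 20.2, 26.2, 32.8, 49.6 and 19.9 RPKM, adjusted p = 0.326).

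Cell cycle genes were slightly lower. All 40 listed genes were tested, 38 were below 0, the median was -0.49, and 7 were called: CCNB1, CCNB2, CDC25C, CENPA, MCM5, MCM6 and RRM2. The 7 were 17.5% of the list, against 4.70% of all genes tested. Over all 14269 genes tested, 8104 were below 0. CCNB1, the cyclin of mitotic entry, was at 89.1, 109 and 91.3 RPKM in control tumors and at 56.8, 41.7, 73.5, 60.4 and 38.6 RPKM in HNF4G-KO + FOXA1-OE tumors (log2 fold change -0.87 ± 0.17, adjusted p = 0.0124). RRM2, a subunit of ribonucleotide reductase, had a log2 fold change of -0.79 ± 0.16 and CENPA, the centromeric histone, of -0.92 ± 0.18. These calls were sensitive to the fit, and 0 of the 40 were called by limma without control tumor 2, in the fit of the 2 groups alone or after removal of chromosome window medians, with medians of -0.44, -0.49 and -0.39. Without control tumor 3 there was 1 call and without control tumor 1 there were 4, and with the stromal level as a covariate 5 were called and the median was -0.26.

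Glycolysis and hypoxia genes had a median of -0.39 with 32 of 34 below 0, against 8104 of all 14269 genes tested. GAPDH was the only call (2.94%, against 4.70% of all genes tested). It was lost without any one of the control tumors, where the median of the list ran from -0.24 to -0.47. GAPDH was at 720, 706 and 1012 RPKM against 505, 294, 501, 437 and 358 RPKM (log2 fold change -0.94 ± 0.22, adjusted p = 0.0267). No call was made by limma among 31 cholesterol and fatty acid synthesis genes, 25 immediate early genes or 21 S100 and annexin genes, where 5, 3 and 3 members had an unadjusted p below 0.05 and limma-voom on recovered reads called 0, 1 and 0 of them. The LY6 family held 2 rises (LY6D and PSCA) and 1 fall (LYPD1) among 10 tested, epithelial adhesion 1 rise (CDH17) among 32 and mucosal defence 1 rise (IL1RN) among 22. These shares were 30.0%, 3.12% and 4.55%, against 4.70% of all genes tested. Host stroma, host pancreas and host adipose lists held 0 limma calls among 8, 13 and 2 tested, with 1, 0 and 1 at an unadjusted p below 0.05 and 0, 0 and 1 by limma-voom, and CD14 was the 1 fall among 3 tested host blood genes. Growth factor genes were split between IGFBP6 (log2 fold change 1.62 ± 0.42) and IGFBP3 (-1.45 ± 0.27), which both bind insulin-like growth factors. In the Wnt pathway the paired ubiquitin ligases that remove Frizzled receptors differed in sign, with RNF43 at 0.78 ± 0.20 and ZNRF3 at -0.59 ± 0.15. In mucin glycosylation FUT4 rose (0.81 ± 0.19) and B4GALNT3 fell (-0.95 ± 0.22). Each of these pairs had no overlap between groups, but of the 7 fits that left out 1 mouse RNF43 was called in 2, ZNRF3 in 1, FUT4 and B4GALNT3 in 2, IGFBP6 in 1 and IGFBP3 in 6. In the growth factor, Wnt and Notch and mucin glycosylation lists 8.33%, 8.0% and 8.7% of tested members were called, against 4.70% of all genes tested. The Wnt and Notch and the mucin glycosylation lists held 0 limma calls without any one of the control tumors and with the 2 groups alone.

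**Figure D3:**
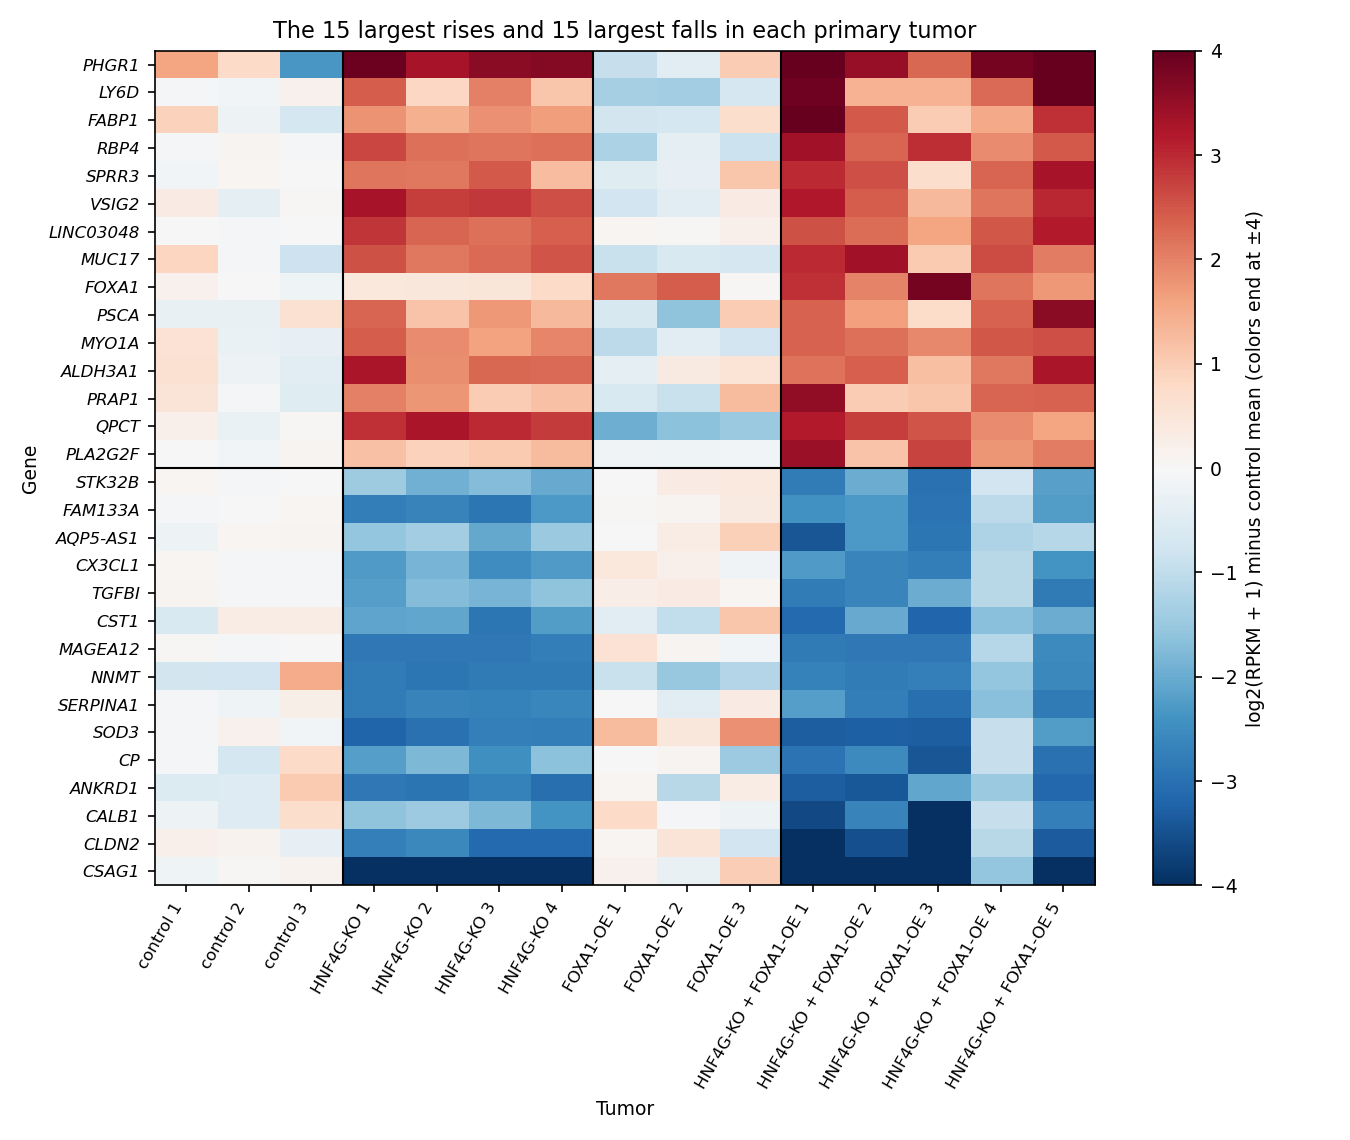
Rows are the 15 largest rises and 15 largest falls among called genes with a symbol, columns are the 15 primary tumors of 4 groups, and color is log2(RPKM + 1) minus the control mean, from -4 to 4. HNF4G-KO + FOXA1-OE tumor 4 is paler than the other tumors of its group for the falls, for example CSAG1 at 5.39 RPKM against 0 to 0.185 RPKM.

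Other genes among the 15 largest falls were ANKRD1, CP, SOD3, NNMT, CST1, CX3CL1, AQP5-AS1, FAM133A and STK32B. CP, the copper carrier ceruloplasmin, was at 18.9, 11.7 and 34.6 RPKM against 1.67, 2.55, 0.953, 9.90 and 1.64 RPKM (log2 fold change -2.46 ± 0.52, adjusted p = 0.0182). Its call was kept in 4 of the 7 fits that left out 1 mouse. NNMT, nicotinamide N-methyltransferase, was at 3.45, 3.42 and 19.99 RPKM against 0.146, 0.0701, 0.126, 1.57 and 0.239 RPKM (log2 fold change -2.40 ± 0.45, adjusted p = 0.0103). CX3CL1, the chemokine fractalkine, was at 13.7, 12.7 and 12.6 RPKM against 1.91, 1.23, 1.05, 5.46 and 1.66 RPKM (log2 fold change -2.12 ± 0.30, adjusted p = 0.00293). Tumor 4 was again the highest treated tumor for each of these 3.

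Some further genes were chosen after their values were seen. AQP3, an aquaglyceroporin, rose from 21.0, 15.2 and 14.998 RPKM to 112, 66.4, 150, 45.3 and 67.3 RPKM (log2 fold change 2.12 ± 0.30, adjusted p = 0.00293), whereas AQP5, the water channel of secretory epithelia, fell from 99.7, 104 and 162 RPKM to 14.7, 21.9, 14.8, 65.4 and 57.7 RPKM (log2 fold change -1.87 ± 0.44, adjusted p = 0.0274). AQP5 overlaps AQP5-AS1 on chromosome 12, and the strand setting of the counting is not given in the sources used here, so the 2 cannot be told apart. APOBEC1, the enzyme that edits apolipoprotein B transcripts in the intestine, and A1CF, its cofactor, had log2 fold changes of 1.18 ± 0.19 and 0.61 ± 0.16. CDKN1A, an inhibitor of cyclin-dependent kinases, was at 34.9, 26.4 and 22.8 RPKM against 127, 73.0, 59.0, 50.8 and 84.0 RPKM (log2 fold change 1.45 ± 0.26, adjusted p = 0.00805).

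Non-coding genes made up 60 of the 670 calls as long non-coding RNAs, beside 588 protein-coding genes. LINC03048 had the smallest p of all and was nearly absent from control tumors (0.0690, 0.0279 and 0.0796 RPKM) but not from the HNF4G-KO + FOXA1-OE tumors (5.21, 4.00, 2.16, 4.98 and 8.46 RPKM). UCA1, a long non-coding RNA of epithelial cancers, rose from 99.1, 76.3 and 113 RPKM to 269, 320, 183, 124 and 178 RPKM (log2 fold change 1.03 ± 0.26, adjusted p = 0.0408).

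The calls were spread unevenly over chromosomes. The share of tested genes called lower was 8.53% on chromosome 21, 7.42% on X and 5.89% on chromosome 2, and 0.358% on chromosome 9, whereas 5.36% of genes on chromosome 10 were called higher. Of 154 windows of 20 Mb, the lowest medians were -0.39 on chromosome 2 (1 to 20000000) and on chromosome 21 (20000001 to 40000000), and the highest was 0.20 on chromosome 12 (120000001 to 140000000). In the same order, the medians of these windows were -0.08, -0.16 and 0.17 with HNF4G-KO alone and -0.15, -0.14 and -0.07 with FOXA1-OE alone. The HNF4G-KO cells were pooled clones, and the part of a copy number difference in these medians was not tested. After each window's median was removed, 479 genes were called, 294 higher and 185 lower, so the higher share went from 45.7% to 61.4%.

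The log2 fold changes of the single changes are given beside those of the combined group as a description, since all 3 comparisons share the control tumors. The 306 genes called higher had a median of 1.06 in the combined group, 0.90 with HNF4G-KO alone and -0.02 with FOXA1-OE alone. The 364 called lower had medians of -0.875, -0.73 and -0.02 in the same order. Both sets were chosen by the combined comparison. CLDN2 was -3.14 in the combined group, -2.88 with HNF4G-KO alone and -0.06 with FOXA1-OE alone. RBP4 was 2.58, 2.30 and -0.83, SERPINA1 -2.41, -2.70 and -0.04, and CEACAM5 2.23, 2.82 and -0.84 in the same order. FOXA1 was 2.43, 0.52 and 1.53. AQP5 was -1.87, -0.43 and 0.38, IGFBP6 1.62, 0.22 and 0.26, GUCA2B 1.86, 0.65 and -0.44, and ABCC2 1.71, 0.81 and -0.15. CLDN18, the gastric claudin, was 1.19 in the combined group (adjusted p = 0.0626) and 3.17 with HNF4G-KO alone. The FOXA1-OE values include FOXA1-OE tumor 3, whose FOXA1 level was within the range of the control tumors. That tumor also had a median of -0.19 over all genes tested, against 0.05 and 0.06 in FOXA1-OE tumors 1 and 2. Whether any of the log2 fold changes differ between the combined and the single changes was not tested here.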

How the data were processed

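RNA of HPAF-II tumors was sequenced from stranded mRNA libraries, and the authors deposited gene-level RPKM values. The submitters' processing notes name STAR 2.6.1a, featureCounts 2.0.4 and DESeq2 and the builds hg38 (GRCh38) and mm10 (GRCm38), and the strand setting of the counting is not given in the sources used here. How the human and mouse reads were separated is not given either. Of 58719 gene IDs, 58205 were found in GENCODE release 44 with the version ignored, and names and positions came from it. Promoter sequences came from RefSeq (GRCh38.p14).

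RPKM values were analysed as log2(RPKM + 1) for the 14269 genes that averaged 1 RPKM or more in primary tumors, so fold changes of low genes are understated. One limma model (limma 3.58.1, R 4.3.3, mean trend) was fitted to the 4 groups of primary tumors, with tumors of 1 mouse averaged, and p-values were adjusted by Benjamini-Hochberg over all genes, with a threshold of 0.05. The SE is the moderated one of limma. The groups were read from the sample labels. Separate tumors came from separate mice except where stated. All genes had RPKM steps that gave whole reads within 0.02 reads, which gave the depth and allowed limma-voom as an alternative. The model was tested on simulated data.

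The members and the 29 gene lists were chosen with earlier results of these data known. Named genes were the regulators, the 15 largest called changes in each direction and up to 4 members of smallest p from each list, and further list members where a count is given. Alternatives varied the pseudocount, filter, scaling, samples, covariates and model. Metastases and the other cell lines were not used here.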

Additional observations from a re-analysis of the deposited data

Results flagged for a closer look

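Among 69 named genes that were called, 7 had 1 of the 4 HNF4G-KO + FOXA1-OE mice far from the others, by Dixon's ratio of the gap to the range with a critical value of 0.829. Chance gives such a ratio in about 1 of 20 groups. The mouse of tumor 4 was the high one for CP (ratio 0.990; 9.90 RPKM), CSAG1 (0.926; 5.39 RPKM), ALDH1A3 (0.869; 4.69 RPKM), NNMT (0.858; 1.57 RPKM) and SERPINA5 (0.851; 14.51 RPKM), all of them genes that fell. RRM2 was low in tumor 5 (ratio 0.872; 15.2 RPKM against 19.6 to 21.6 RPKM in the other 4 tumors). PLA2G2F, a secreted phospholipase, was high in tumor 1 (ratio 0.850; 12.3 RPKM).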

How the results depend on the processing

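The count of 670 genes (306 higher, 364 lower) depended on the samples in the fit. It was 114 (68 higher, 46 lower) with only the 2 groups compared and 314 (176 and 138) with a log2 fold change of at least 1, and removal of the median of 20 Mb windows left 479 (294 and 185). Fits without 1 mouse gave 137 to 682 genes, 73 to 384 higher and 64 to 401 lower. The counts were 386, 205 and 137 without control tumors 1, 2 and 3, 370 without HNF4G-KO + FOXA1-OE tumor 1, 632 without the mouse of tumors 2 and 3, 682 without tumor 4 and 517 without tumor 5. The higher share of 45.7% became 59.7% with 2 groups, 56.1% with the fold limit, 61.4% with windows removed and 60.8% without the mouse of tumors 2 and 3. The other alternatives gave 495 genes with no filter to 809 with tumors shifted to the same median, with 757 under the stromal covariate and 743 by limma-voom. The cause was not tested.

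Tumor numbers did not pair the samples: deviations of same-numbered tumors correlated at 0.0163, -0.204 and -0.0262. The fit with tumor number as a replicate block differed from the main fit in other ways too. Tumors of the same mouse entered it as separate samples. HNF4G-KO + FOXA1-OE tumor 5 had no same-numbered tumor in another group, so it could not inform the difference. This fit called 696 genes (305 higher, 391 lower), 465 of them among the 670. Its cell cycle list held 1 call with a median of -0.37, against 7 and -0.49 in the main fit. Its intestinal list median was 1.11 against 0.44. The part of the block alone in these changes was not tested.

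All 69 named called genes kept their sign in every alternative, and 30 kept the call with 2 groups and 31 without control tumor 3. MYC, uncalled at -0.12, was 0.33 with the block, 0.34 with the stromal covariate, 0.0019 with windows removed, 0.0125 without control tumor 3 and 0.21 without tumor 5, and ran from -0.39 (without tumor 1) to 0.21 over the fits without 1 mouse. TRIB1, uncalled at -0.00, was 0.0422 with shifted medians, 0.0775 with separate tumors, 0.34 with the block, 0.10 with the covariate, 0.12 with windows removed, and 0.028, 0.0267 and 0.26 without control tumor 3, tumor 4 and tumor 5, the fits without 1 mouse running from -0.16 (without tumor 1) to 0.26.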
